A study of Mus musculus with 8 samples.

Results

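The nuclear genes of respiratory complex I were followed in brown adipose tissue (BAT) of mice whose thermogenic adipocytes lacked adipose triglyceride lipase (ATGL). Complex I (NADH:ubiquinone oxidoreductase) takes electrons from NADH, passes them through a flavin and a chain of iron-sulfur clusters to ubiquinone, and pumps protons across the inner mitochondrial membrane. Its peripheral arm in the matrix holds the N module, which oxidizes NADH, and the Q module, which reduces ubiquinone. Its membrane arm carries the proton pumps, which are encoded by mitochondrial DNA and wrapped by small nuclear-encoded accessory subunits. Assembly factors build these modules and are absent from the finished enzyme. In BAT, the proton gradient made by this chain is dissipated as heat by UCP1.

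The members were all protein-coding genes in the count table whose symbols begin with Nduf followed by a, ab, b, c, s, v or af and a number. This rule was met by 46 of the 31053 genes in the table, namely 38 subunit genes and 8 Ndufaf assembly factors. The Nduf genes outside the rule (pseudogenes and noncoding copies) were not counted.

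Bulk RNA-seq covered BAT of 4 wild-type (WT) mice and 4 Ucp1Δ/Δ mice, labelled ATGLKO. All were C57BL6/J, at 10 weeks of age by the labels, although the study's own text names a younger age. The Ucp1Δ/Δ mice came from Pnpla2 fl/fl mice crossed with a Ucp1-Cre line, so that Pnpla2, which encodes ATGL, the rate-limiting triglyceride lipase, was deleted only in cells that had used the Ucp1 promoter. Other cells of the tissue kept the gene, and whether the WT mice carried the floxed allele was not given in the sources used here. The labels call the cell type stromal vascular fraction, but summed brown adipocyte markers stood at 14080 to 24800 CPM (counts scaled to library size) in WT and 11020 to 16430 in Ucp1Δ/Δ mice, so the libraries are treated here as whole BAT. The labels do not tie the mice to litters or cages, and p-values measure the spread between these 8 mice.

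The libraries held 2017697 to 3115956 counts, and 3 counts stood for 0.934 to 1.53 CPM, where CPM is relative to the library size after scaling with trimmed mean of M-values (TMM) factors. Pnpla2 was at 2701 to 3152 CPM in WT and 403 to 531 CPM in Ucp1Δ/Δ mice, and the groups did not overlap. Macrophage markers summed to 95.8 to 147 CPM in WT and 941 to 1537 CPM in Ucp1Δ/Δ mice, and 8 of 8 rose (edgeR). Stromal markers summed to 259 to 328 CPM in WT and 564 to 948 CPM in Ucp1Δ/Δ mice, with 3 of 4 tested higher. Of 10 brown adipocyte markers 4 fell (Adipoq, Cidea, Plin1 and Elovl3) and Dio2 rose, while Ucp1 had a log2 fold change of -0.34 (adjusted p = 0.481, edgeR). Of 5 endothelial markers 0 were called, and the 4 lymphocyte markers, too low to be tested, summed to at most 2.48 CPM. Skeletal muscle markers, from tissue that lies against this depot, ran from 23.4 to 1585 CPM in WT and from 68.5 to 2055 CPM in Ucp1Δ/Δ mice, highest in WT mouse 1 and Ucp1Δ/Δ mouse 2; 0 of 9 tested were called. In bulk tissue, fewer cells of a type and less RNA per cell cannot be told apart, and the part of these cell type differences in the results below was not tested.

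A minority of the complex I subunit transcripts fell in Ucp1Δ/Δ BAT. Of 37 subunits tested 8 fell at an adjusted p under 0.05 (edgeR quasi-likelihood test, Benjamini-Hochberg over 8930 genes), where 7.63% of all genes tested fell. None rose, where 13.3% of all genes did, and DESeq2 also called 0 of 38 higher. The log2 fold change was below 0 in 36 of the 37, with a median of -0.46. It was below 0 in 33 with total-count scaling, and in 32 without WT mouse 2 or without WT mouse 1 and Ucp1Δ/Δ mouse 2 together. The median of all genes tested was -0.0087 and 50.7% of them lay below 0. Only Ndufa4 was called lower with a log2 fold change past -1, as were 2.54% of all genes tested. In 10 of the 37 every Ucp1Δ/Δ mouse lay below every WT mouse, a pattern held by 9.37% of all genes tested. In 0 of the 37 every Ucp1Δ/Δ mouse lay above every WT mouse, a pattern held by 1283 of the 8930 genes tested.

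The subunit count depended on the test and on single mice. The DESeq2 Wald test, with its own filter, called 16 of 38 subunits lower against 6.38% of all genes, the 8 that edgeR called and 8 others: Ndufb6, Ndufb11, Ndufb8, Ndufs4, Ndufa3, Ndufb3, Ndufab1 and Ndufv3. With edgeR the count was 5 without WT mouse 3, Ucp1Δ/Δ mouse 2 or Ucp1Δ/Δ mouse 4, where 5.36%, 4.46% and 5.14% of all genes were lower. It was 20 without WT mouse 4, where 9.19% of all genes were lower. Without WT mouse 1 and Ucp1Δ/Δ mouse 2 together, the mice with most muscle transcripts in their genotype, 1 subunit, Ndufa1, was called, against 3.12% of all genes, and the median log2 fold change of the subunits was -0.43.

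**Figure D1:**
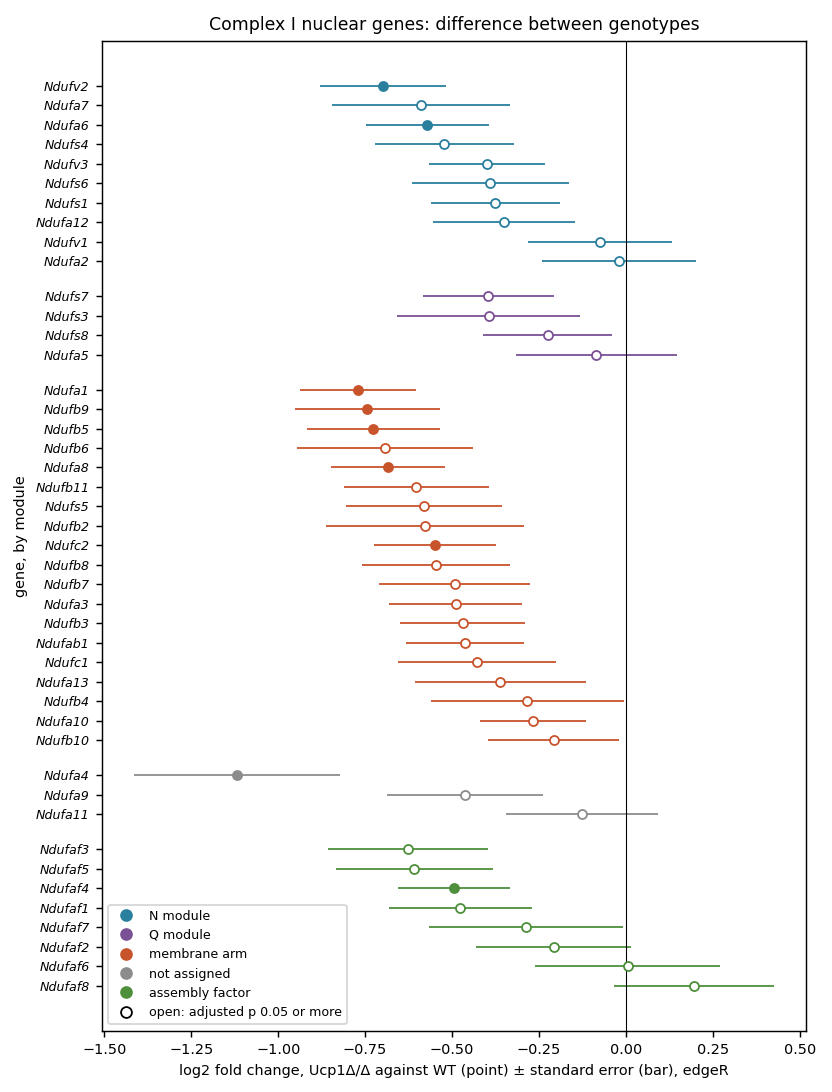
Log2 fold change of the tested members in Ucp1Δ/Δ against WT BAT (horizontal axis; points, with bars for the standard error, edgeR), grouped by module; filled points have an adjusted p under 0.05. The filled points are 8 subunits and Ndufaf4, all left of 0, and Ndufaf6 and Ndufaf8 are the assembly factors right of it.

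Within the membrane arm, 5 of 19 listed nuclear subunits fell (Ndufa1, Ndufb9, Ndufb5, Ndufa8 and Ndufc2), or 26.3%, beside 7.63% of all genes tested. All 19 had a log2 fold change below 0, from -0.77 to -0.21, and the median was -0.55. Ndufa11 (-0.13) was in no module list and is not among these 19. Ndufa1, a small X-linked subunit of this arm (chrX:37187588-37191163, mm10), was at 493, 556, 488 and 387 CPM in the WT mice and at 324, 249, 287 and 268 CPM in the Ucp1Δ/Δ mice. All 4 Ucp1Δ/Δ mice were below the lowest WT mouse. Its log2 fold change was -0.77 (SE 0.17, adjusted p = 0.00361, edgeR), a mean of 481 ± 70.3 against 282 ± 31.9 CPM (SD, n = 4 each), and it was lower at that threshold in 18 of 18 alternative analyses.

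Ndufa8, an accessory subunit that faces the intermembrane space (chr2:36036326-36049406), was at 244, 288, 262 and 239 CPM in WT mice and at 171, 134, 188 and 151 CPM in Ucp1Δ/Δ mice. The WT values were close together and none overlapped those of the other genotype (log2 fold change -0.68, SE 0.16, adjusted p = 0.00732, edgeR). Ndufb5, another accessory subunit of this arm (chr3:32736990-32751566), was at 634, 835, 653 and 453 CPM in WT mice and at 442, 355, 419 and 342 CPM in Ucp1Δ/Δ mice. Again the groups did not overlap, though WT mouse 4 came close to Ucp1Δ/Δ mouse 1 (log2 fold change -0.73, SE 0.19, adjusted p = 0.0128, edgeR). Part of the Ndufb5 gene shares exon positions with Mrpl47 on the other strand, and the strand setting of the counting was not given in the sources used here.

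Ndufb9, a member of the LYR family of small matrix proteins (chr15:58933756-58939488), was at 1298, 1742, 1434 and 942 CPM in WT mice and at 995, 666, 921 and 654 CPM in Ucp1Δ/Δ mice. It was the only called member whose groups overlapped, since WT mouse 4 lay below Ucp1Δ/Δ mouse 1 (log2 fold change -0.74, SE 0.21, adjusted p = 0.0189, edgeR). The call was lost without WT mouse 3 (adjusted p = 0.0524, edgeR), without Ucp1Δ/Δ mouse 2 (0.0686) and without Ucp1Δ/Δ mouse 4 (0.0647). Its exons overlap those of Gm49356 on the same strand, so reads of the pair could have been split or dropped.

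Ndufc2, a membrane arm subunit (chr7:97400003-97407802), was at 410, 534, 463 and 331 CPM in WT mice and at 331, 270, 311 and 278 CPM in Ucp1Δ/Δ mice. The lowest WT mouse was only just above the highest Ucp1Δ/Δ mouse, and the log2 fold change was -0.55 (SE 0.18, adjusted p = 0.0364, edgeR). This call held in 8 of 18 alternatives; among single mice it was lost without WT mouse 1 (adjusted p = 0.0559, edgeR), WT mouse 2 (0.0653), WT mouse 3 (0.0946), or Ucp1Δ/Δ mouse 2 (0.105), mouse 3 (0.0705) or mouse 4 (0.0923). Ndufab1, the mitochondrial acyl carrier protein, which serves fatty acid and lipoic acid synthesis besides complex I, ran from 334 to 468 CPM in WT and from 243 to 329 CPM in Ucp1Δ/Δ mice. Its groups did not overlap, but it did not pass the test (log2 fold change -0.46, SE 0.17, adjusted p = 0.0675, edgeR); it did so without WT mouse 4 (0.0360).

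**Figure D2:**
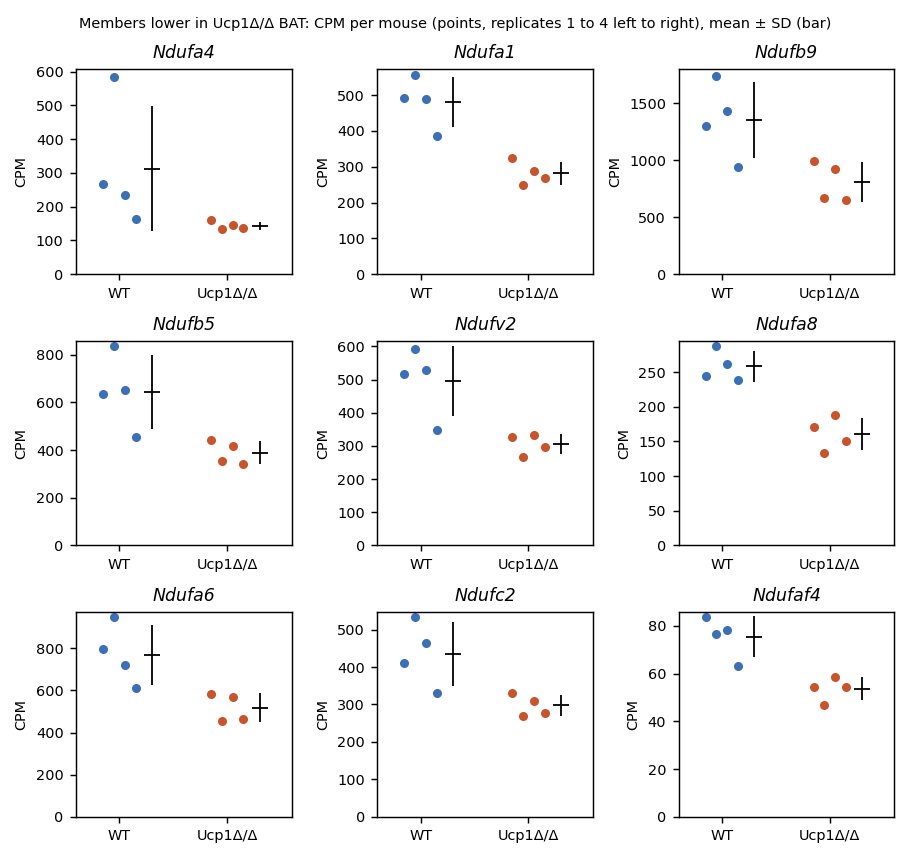
Transcript level of the 9 members called lower (vertical axes, CPM, from 0), one panel per gene; points are mice in the order of replicates 1 to 4 and the bars give mean ± SD of 4 mice. WT mouse 4 is the lowest WT point in all panels and WT mouse 2 the highest in all but Ndufaf4, and Ndufb9 is the panel whose genotypes overlap.

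In the N module 2 of 10 subunits fell, where 7.63% of all genes tested fell, and the median log2 fold change was -0.39. DESeq2 called 4 of these 10 lower, beside 6.38% of all genes. Ndufv2, a core subunit that carries an iron-sulfur cluster next to the flavin (chr17:66078638-66101559), was at 518, 591, 528 and 347 CPM in WT mice and at 327, 267, 332 and 297 CPM in Ucp1Δ/Δ mice. The groups did not overlap, and the log2 fold change was -0.70 (SE 0.18, adjusted p = 0.0121, edgeR). Ndufv1, the partner of Ndufv2 that binds NADH and the flavin, gave no such difference, at 1078, 1414, 1068 and 698 CPM in WT mice and 1141, 791, 1088 and 1025 CPM in Ucp1Δ/Δ mice. Its groups overlapped throughout (log2 fold change -0.07, SE 0.21, adjusted p = 0.843, edgeR), and the sign turned with total-count scaling (0.056) and without the mice with most muscle transcripts (0.051).

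Ndufa6, another LYR protein, which holds the acyl carrier protein against the peripheral arm (chr15:82350140-82354322), was at 798, 948, 723 and 609 CPM in WT mice and at 585, 454, 569 and 464 CPM in Ucp1Δ/Δ mice. The gap between the nearest mice was small, and the log2 fold change was -0.57 (SE 0.18, adjusted p = 0.0312, edgeR). The call was lost without WT mouse 1 (adjusted p = 0.0693, edgeR), WT mouse 2 (0.0569), WT mouse 3 (0.0560), or Ucp1Δ/Δ mouse 2 (0.0965) or mouse 4 (0.0870). Ndufs1, a core subunit that carries iron-sulfur clusters, was at 294 to 554 CPM in WT and 300.0 to 346 CPM in Ucp1Δ/Δ mice. WT mouse 4 was below every Ucp1Δ/Δ mouse, and Ndufs1 did not pass the test (log2 fold change -0.38, SE 0.19, adjusted p = 0.177, edgeR); without that mouse it did (0.0338). Ndufa2, an accessory subunit, had a log2 fold change of -0.02 (SE 0.22, adjusted p = 0.966, edgeR), which became 0.11 with total-count scaling.

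In the Q module 0 of 5 subunits were called in either direction by edgeR or DESeq2, and the median log2 fold change was -0.22. Ndufs7, which carries the last iron-sulfur cluster before ubiquinone, had a log2 fold change of -0.40 (SE 0.19, adjusted p = 0.161), Ndufs3 of -0.39 (SE 0.26, adjusted p = 0.328) and Ndufs8, which carries iron-sulfur clusters, of -0.22 (SE 0.19, adjusted p = 0.440; all edgeR). Ndufa5, an accessory subunit of this module, was at 660 to 1418 CPM in WT and 803 to 1290 CPM in Ucp1Δ/Δ mice, with a log2 fold change of -0.08 (SE 0.23), or 0.042 with total-count scaling. Over all 7 core catalytic subunits encoded in the nucleus, 1 (Ndufv2) fell (14.3%, beside 7.63% of all genes tested) and the median was -0.38.

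The largest fold among the members was that of Ndufa4 (chr6:11900292-11907497), which keeps its complex I symbol but whose protein is now placed in cytochrome c oxidase (complex IV). It was at 266, 584, 235 and 165 CPM in WT mice and at 160, 134, 146 and 136 CPM in Ucp1Δ/Δ mice. WT mouse 2 stood far above the others, while the Ucp1Δ/Δ mice were close together and all below the lowest WT mouse. The log2 fold change was -1.12 (SE 0.30, adjusted p = 0.0131, edgeR); without WT mouse 2 it was -0.64 (adjusted p = 0.0177, edgeR). Its paralog Ndufa4l2, a gene known to be induced under low oxygen, was the one member removed by the filter on low counts, at 2, 8, 4 and 4 counts in WT mice and 12, 4, 4 and 15 counts in Ucp1Δ/Δ mice. Tested under a filter of at least 1 count in any mouse, it had a log2 fold change of 0.71 (SE 0.55, adjusted p = 0.441, edgeR). Ndufs5 also rested on few reads, at 12.2 to 21.7 CPM in WT and 10.7 to 13.0 CPM in Ucp1Δ/Δ mice.

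Of the 8 Ndufaf assembly factors 1, Ndufaf4, fell (12.5%, beside 7.63% of all genes tested). Of the 8, 6 were below 0 (75.0%, beside 50.7% of all genes tested), and the median log2 fold change was -0.38. Ndufaf4, which acts with Ndufaf3 early in the building of the Q module (chr4:24898083-24905001), was at 83.6, 76.6, 78.1 and 63.3 CPM in WT mice and at 54.5, 47.0, 58.5 and 54.5 CPM in Ucp1Δ/Δ mice. The groups did not overlap, and the log2 fold change was -0.49 (SE 0.16, adjusted p = 0.0407, edgeR). The call held in 7 of 18 alternatives; it was lost without WT mouse 1 (adjusted p = 0.104, edgeR), WT mouse 3 (0.0943), or Ucp1Δ/Δ mouse 1 (0.0793), mouse 2 (0.143), mouse 3 (0.0640) or mouse 4 (0.0825).

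The other assembly factors did not pass the test. Ndufaf3 was at 31.1, 55.6, 36.7 and 30.9 CPM in WT mice and 32.9, 24.9, 21.7 and 20.2 CPM in Ucp1Δ/Δ mice (log2 fold change -0.63, SE 0.23, adjusted p = 0.0662, edgeR), so that Ucp1Δ/Δ mouse 1 lay inside the WT range. Ndufaf5, an enzyme that hydroxylates Ndufs7, had a log2 fold change of -0.61 (SE 0.23, adjusted p = 0.0691, edgeR), and its partner Ndufaf8 one of 0.20 (SE 0.23, adjusted p = 0.602, edgeR). Without Ucp1Δ/Δ mouse 1 both Ndufaf3 (adjusted p = 0.0376, edgeR) and Ndufaf5 (0.0448) passed; Ndufaf3 did so without WT mouse 4 (0.0371) and Ndufaf5 without WT mouse 3 (0.0494). Ndufaf1, a core part of the membrane arm assembly complex, did not overlap between genotypes, at 19.4 to 31.8 CPM in WT and 16.7 to 19.3 CPM in Ucp1Δ/Δ mice (log2 fold change -0.48, SE 0.21, adjusted p = 0.118, edgeR). Ndufaf7, a methyltransferase, had a log2 fold change of -0.29 (SE 0.28), the late factor Ndufaf2 one of -0.21 (SE 0.22), and Ndufaf6 one of 0.0047 (SE 0.26).

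**Figure D3:**
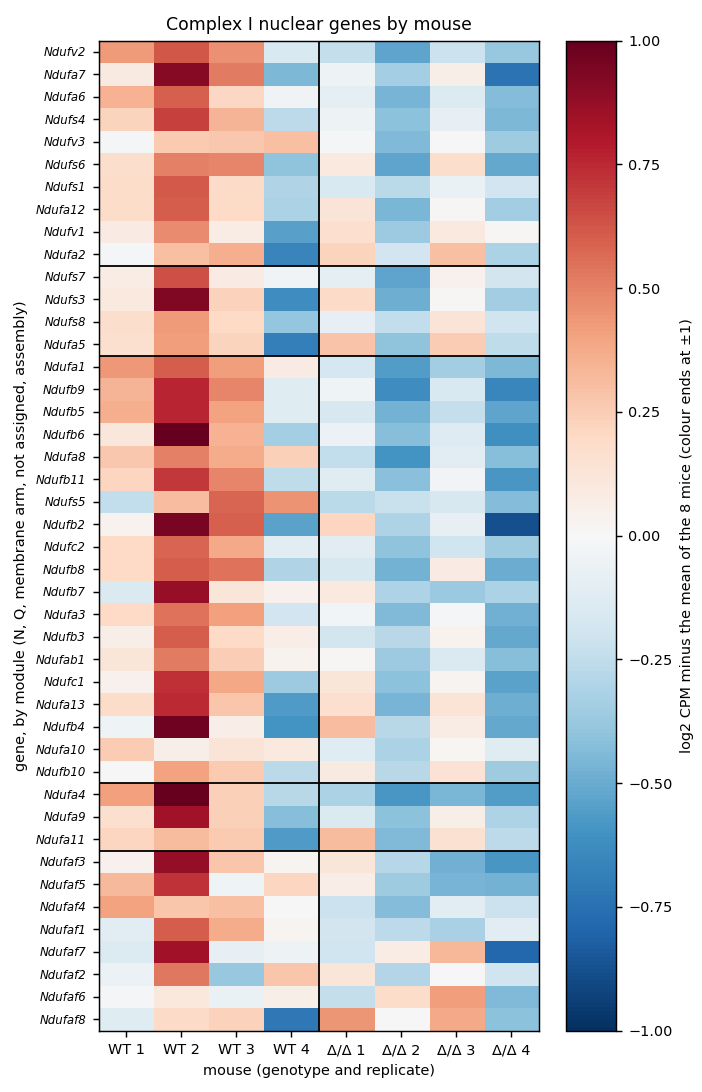
Log2 CPM of the tested members minus its mean over the 8 mice (colour, log2 units, ending at ±1), with members in rows by module and mice in columns. The column of WT mouse 2 is red in nearly every row and that of WT mouse 4 blue in most subunit rows, while the columns of Ucp1Δ/Δ mice 2 and 4 are the bluest on the right.

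The members moved together from mouse to mouse within each genotype. WT mouse 2 had the highest WT level in 33 of 37 subunits and WT mouse 4 the lowest in 32. The mean log2 CPM of the 37 subunits was 8.77, 9.25, 8.92 and 8.38 in WT mice and 8.62, 8.22, 8.60 and 8.21 in Ucp1Δ/Δ mice. The genotypes overlapped on this mean (8.83 ± 0.36 against 8.41 ± 0.23, SD, n = 4 each), because WT mouse 4 lay below Ucp1Δ/Δ mice 1 and 3. Among the Ucp1Δ/Δ mice, mice 1 and 3 were the highest (in 20 and 17 subunits) and mice 2 and 4 the lowest (in 18 each). The coefficient of variation was higher in WT than in Ucp1Δ/Δ mice for 34 of 37 subunits, with medians of 25.5% and 16.2%, against 25.4% and 19.0% over all genes tested. Ucp1 itself was at 2051, 4110, 3426 and 1291 CPM in WT mice and 2821, 1421, 1972 and 2394 CPM in Ucp1Δ/Δ mice. WT mice 2 and 4 were at the ends of the WT range there too. Ucp1Δ/Δ mouse 1 was highest and mouse 2 low in both Ucp1 and the subunit mean. Ucp1Δ/Δ mouse 4, with the lowest subunit mean, had more Ucp1 than mice 2 and 3. The muscle markers were at 1585, 111, 23.4 and 751 CPM in WT mice, highest in mouse 1 and lowest in mouse 3. In Ucp1Δ/Δ mice they were at 326, 2055, 68.5 and 961.5 CPM. How they relate to the subunit levels was not tested.

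A contrast within each mouse does not depend on library scaling. The mean log2 CPM of the 19 membrane arm subunits minus that of the 15 peripheral arm subunits was -0.40, -0.31, -0.29 and -0.21 in WT mice and -0.47, -0.41, -0.53 and -0.55 in Ucp1Δ/Δ mice. Every Ucp1Δ/Δ mouse was lower than every WT mouse, although the nearest pair, WT mouse 1 and Ucp1Δ/Δ mouse 2, differed by little. The median log2 fold change was -0.55 for the membrane arm and -0.39 for the peripheral arm. DESeq2 called 11 of 19 and 4 of 15 lower, beside 6.38% of all genes. Ndufa9 (log2 fold change -0.46) and Ndufa11 (-0.13) were in neither list, and the arms were not compared by a test over genes.

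**Figure D4:**
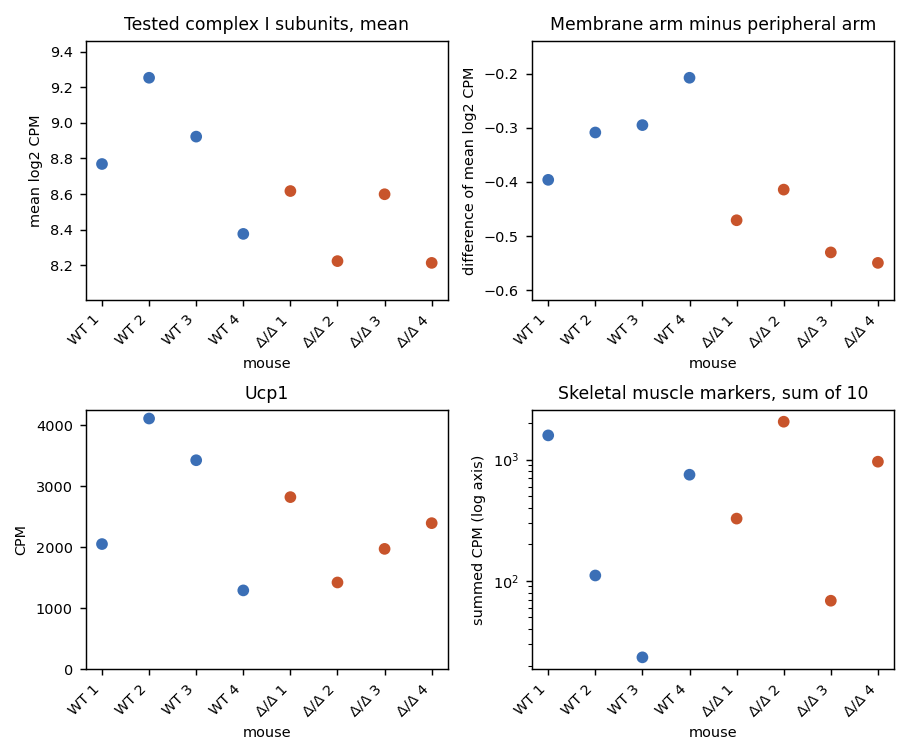
Values per mouse (points; WT mice left, Ucp1Δ/Δ mice right): mean log2 CPM of the 37 tested subunits, difference between membrane and peripheral arm means in log2 units, Ucp1 CPM from 0, and summed CPM of 10 skeletal muscle markers on a log axis. The genotypes overlap in each panel except the arm difference, where all 4 Ucp1Δ/Δ mice lie below all 4 WT mice.

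The complex I subunits encoded by mitochondrial DNA showed no called difference. Of 7 such genes 6 were tested by edgeR, 0 were called by edgeR or DESeq2, and the median log2 fold change was -0.085. mt-Nd1, mt-Nd2, mt-Nd4 and mt-Nd5 lay between -0.14 and -0.02. mt-Nd3 was at 42.8, 83.8, 35.4 and 42.6 CPM in WT mice and 50.2, 31.7, 27.6 and 28.8 CPM in Ucp1Δ/Δ mice, which overlapped (log2 fold change -0.56, SE 0.27, adjusted p = 0.167, edgeR). mt-Nd6, the one encoded on the light strand, was at 12.8, 14.8, 14.0 and 26.3 CPM in WT mice and 23.4, 33.9, 26.3 and 23.6 CPM in Ucp1Δ/Δ mice (log2 fold change 0.67, SE 0.25, adjusted p = 0.0646, edgeR). WT mouse 4 lay within the Ucp1Δ/Δ range, and the unknown strand setting bears on this gene, which lies opposite the heavy-strand transcript. The nuclear and the mitochondrial genes were not compared by a test.

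Of 10 further genes that build complex I without the Nduf name, 1 fell (10.0%, beside 7.63% of all genes tested). The median log2 fold change of the 10 was -0.39. The gene that fell was Tmem126b, a part of the same membrane arm assembly complex as Ndufaf1, Ecsit and Acad9. It was at 34.2, 34.1, 32.7 and 36.5 CPM in WT mice and 19.8, 21.8, 28.4 and 16.3 CPM in Ucp1Δ/Δ mice. The WT mice were nearly equal and all above the Ucp1Δ/Δ mice (log2 fold change -0.67, SE 0.20, adjusted p = 0.0245, edgeR). Ecsit had a log2 fold change of -0.02 (SE 0.19), Acad9 one of -0.42 (SE 0.32) and Foxred1, another assembly factor, one of 0.14 (SE 0.18).

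The nuclear genes of complexes II to V and of the mitochondrial ribosome also had medians below 0. Of 58 tested genes of complexes II to V 3 fell (Uqcrb of complex III, and Cox8a and Cox6b1 of complex IV), 0 rose, and the median log2 fold change was -0.36. Of 74 mitochondrial ribosome genes 6 fell (Mrps18c, Mrpl21, Mrpl30, Mrpl34, Mrpl47 and Mrpl35), 0 rose, and the median was -0.31. In shares, edgeR called lower 21.6% of complex I subunits, 5.17% of the genes of complexes II to V and 8.11% of the ribosomal genes. Over all genes tested the share was 7.63%. In the same order, DESeq2 called 16 of 38, 11 of 59 and 8 of 77 lower, beside 6.38% of all genes. WT mouse 2 was the highest WT mouse in 42 of the 58 and 55 of the 74 genes, and WT mouse 4 the lowest in 45 and 49. The lists differ in make-up. That of complexes II to V also holds assembly genes such as Sdhaf1 and Cox10, whereas the Ndufaf genes were kept apart from the subunits. Ndufa4 was counted with the complex I subunits. Whether the lists differ in their fold changes was not tested.

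**Figure D5:**
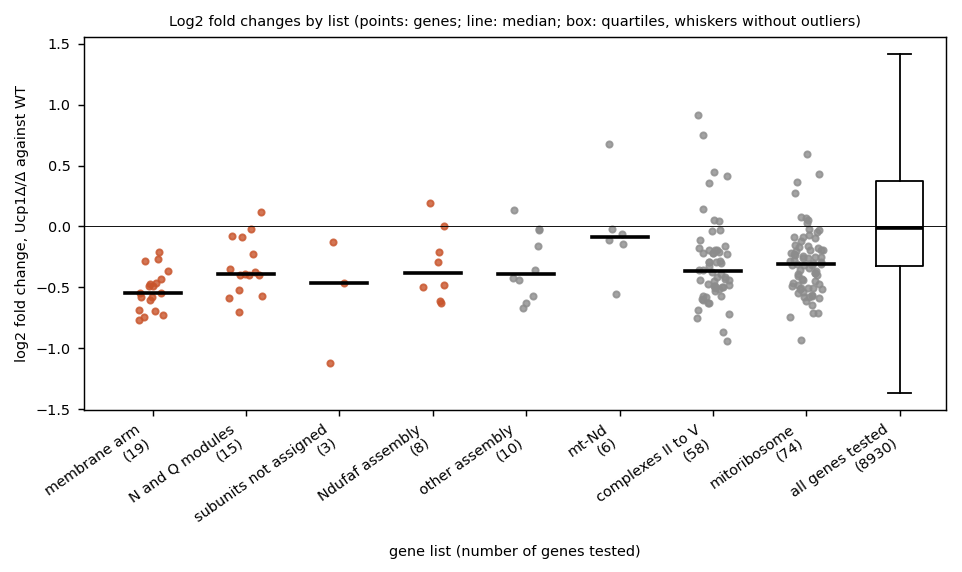
Log2 fold changes (vertical axis, Ucp1Δ/Δ against WT, edgeR) of single genes (points) by list, with the number tested in brackets and a line at the median; the box at the right gives the quartiles of all 8930 genes tested, its whiskers leaving out outliers. The medians run from -0.55 for the membrane arm to -0.085 for the mitochondrially encoded subunits, beside -0.0087 for all genes.

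Promoters of the members were read for the motifs of factors known to drive respiratory chain genes. RefSeq promoters (GRCm38.p6, 250 bases before to 50 after the start) were held for 40 of the 46 members, 8 of the 9 called ones among them, and for 27025 genes in all. The motif of NRF1, GCGCANGCG on either strand, was present in 10 of 40 members (25.0%) and in 7.03% of all promoters; it was present in 3 of the 8 called members, Ndufa6, Ndufa8 and Ndufaf4. The YY1 motif AANATGGCG was in 8 of the 40 members (2.76% of all promoters) and in 0 of the called ones, the GABPA motif CCGGAAGT in 1 member, Ndufs3 (2.5%; 4.31% of all), and the estrogen-related receptor (ERR) motif TCAAGGTCA in none (0.47% of all). The NRF1 matches of the called members are shown with those of Ndufa5, Ndufa11 and Ndufs6, which were not called, as 30 bases on the gene's strand with the match in capitals; a capital run of 10 holds the motif on both strands, overlapping.
Ndufa8 (chr2:36049328-36049357, minus strand): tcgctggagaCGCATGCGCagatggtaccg
Ndufa8 (chr2:36049348-36049377, minus strand): tagagcagtgCGCTTGCGCgtcgctggaga
Ndufaf4 (chr4:24897960-24897989, plus strand): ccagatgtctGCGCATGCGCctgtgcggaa
Ndufa6 (chr15:82354248-82354277, minus strand): cgtggcaccgCGCGTGCGCacgctgaaggg
Ndufa11 (chr17:56717692-56717721, plus strand): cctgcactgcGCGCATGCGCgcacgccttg
Ndufa5 (chr6:24527697-24527726, minus strand): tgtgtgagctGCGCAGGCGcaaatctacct
Ndufs6 (chr13:73328478-73328507, minus strand): gactgctgtgCGCCTGCGCcggcacttggt

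The run in Ndufaf4, which fell, and that in Ndufa11, whose log2 fold change was -0.13 (SE 0.22, adjusted p = 0.740, edgeR), hold the same 10 letters. A match describes the letters in these windows and says nothing of binding in these mice. The transcripts of the factors themselves were mostly not called: of 9 tested regulators of respiratory genes 1 fell (11.1%, beside 7.63% of all genes tested). This was Esrra, which encodes the nuclear receptor ERRα, at 14.8, 43.9, 17.4 and 24.3 CPM in WT mice and 12.4, 8.09, 10.4 and 7.30 CPM in Ucp1Δ/Δ mice. The groups did not overlap, and WT mouse 2 was again the highest (log2 fold change -1.38, SE 0.32, adjusted p = 0.00611, edgeR). Nrf1 had a log2 fold change of -0.07 (SE 0.26), Gabpa one of -0.24 (SE 0.27), Tfam, the mitochondrial DNA packaging and transcription factor, one of -0.50 (SE 0.22, adjusted p = 0.133, edgeR) and the coactivator Ppargc1a one of 0.27 (SE 0.21, adjusted p = 0.407, edgeR).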

How the data were processed

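The members and gene lists were chosen with earlier results of these data known. BAT RNA (NEGEDIA Digital mRNA-seq, single-end) of 8 mice was deposited as raw counts per gene and as normalized log2 values. The study's methods name bbduk, STAR, HTseq-counts and DESeq2 on mm10, whereas the submitters' processing notes name Trimmomatic, HISAT2 and DESeq2 on GRCm38 and mm10. The deposited counts were used as they stood; the log2 values the authors deposited (count over 1 factor per mouse, plus 1) served an alternative. Symbols and positions came from GENCODE M21, which matched 31011 of 31053 identifiers.

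edgeR 4.0.16 (R 4.3.3) was fitted on all genes with genotype as the only term, after filterByExpr and TMM scaling, and genes with a Benjamini-Hochberg adjusted p under 0.05 were called; the quasi-likelihood test was two-sided. DESeq2 1.42.0, limma 3.58.1, other scalings, filters, a replicate block and left-out mice were alternatives. Log2 CPM used a prior count of 2. Named were the core subunits, every called member, the 4 smallest and 4 largest log2 fold changes among subunits, every Ndufaf gene, Ndufa4, Ndufa4l2 and Ndufab1; other genes were named after their values were seen. A member that is counted is not reported by name here. Modules were a hand-written list, with Ndufa4, Ndufa4l2, Ndufa9 and Ndufa11 in none. The counts, ranges and medians by module and arm therefore leave these genes out. No 2 libraries were duplicates.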

Additional observations from a re-analysis of the deposited data

Results flagged for a closer look

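In 4 genes 1 mouse stood apart from the other 3 of its genotype by Dixon's criterion, given as the gap to the nearest mouse over the group's range; 94 groups of 4 mice were looked at, and 4.7 such cases would arise by chance at 1 in 20. Ndufb7, a membrane arm subunit, was at 7.66 log2 CPM in Ucp1Δ/Δ mouse 1 against 7.19 to 7.26 in the others (0.856). Ndufv3, an accessory subunit of the N module, was at 9.44 log2 CPM in WT mouse 1 against 9.72 to 9.76 (0.870). The assembly factor Ndufaf7 was at 4.90 log2 CPM in WT mouse 2 against 3.96 to 4.05 (0.912). Ndufa11, an accessory subunit, was at 7.81 log2 CPM in WT mouse 4 against 8.59 to 8.70 (0.884). None of the 4 genes was called different between genotypes by edgeR.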

How the results depend on the processing

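The number of subunits called lower was 8 in the reported analysis (beside 7.63% of all genes tested) and 16 with the DESeq2 Wald test (6.38%). It was 13 with limma voom and quality weights (9.2%) and 14 with a filter of at least 1 count in any mouse (5.31%). Without the mouse with most muscle transcripts in each genotype it was 1 (3.12%). Leaving out single mice gave 5 to 20 (4.46% to 9.19%). Of Ndufaf genes 1 was lower, against 0 under the block on replicate numbers, under total-count scaling, under the filter of 10 counts per mouse, or without those 2 muscle-rich mice, and 0 to 2 with single mice left out. Over all genes 1872 were called, 1195 with at least 10 counts in every mouse and 1095 without the muscle-rich mice. The median log2 fold change of the subunits stayed below 0 in all 18 alternatives (-0.57 to -0.33 with single mice left out, and -0.33 with total counts, which moved the median of all genes to 0.13). No member was called higher in any alternative.

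The replicate numbers did not pair the mice (correlations of same-numbered mice -0.0873, -0.196, 0.304 and 0.241; own number best in 1 of 4). With the replicate block 8 subunits were lower and 1719 genes called, and the calls of Ndufc2 (adjusted p = 0.0545) and Ndufaf4 (0.0660, edgeR) were lost.

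Of 25 genes named by the fixed rule, 9 kept the same call, or lack of one, and direction throughout. Among these only Pnpla2 and Ndufa1 were called, and Ndufa1 was the only called member called in 18 of 18 alternatives. The others of the 9 (Ndufs3, Ndufs7, Ndufs8, Ndufaf1, Ndufaf2, Ndufaf7 and Ndufaf8) were uncalled throughout. Another 4 genes, near 0, changed sign, for which the cause was not tested. Ndufa2 was at 0.050 with at least 10 counts, 0.0091 with the block, 0.11 with total counts and 0.040 without the muscle-rich mice (-0.20 to 0.092 with single mice left out). Ndufa5 was at 0.042 and 0.069 under the last 2 of these (-0.28 to 0.037), and Ndufv1 at 0.056 and 0.051 (-0.24 to 0.082). Ndufaf6 was at -0.035 (DESeq2 Wald), -0.014 (DESeq2 size factors), -0.022 (at least 1 count), -0.072 (limma trend), -0.012 (voom), -0.0072 (block) and -0.057 (muscle-rich mice left out), and ran from -0.13 to 0.12. The depth of 2017697 to 3115956 counts left genes such as Ndufa4l2 untested.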
